A study of Mus musculus with 6 samples.

Results

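The genes described here encode 9 nucleases and related enzymes that clear DNA or RNA outside cells, in lysosomes or in the cytosol: Dnase1l3, Dnase2a, Trex1, Samhd1, Pld3, Pld4, Rnaset2a, Rnaset2b and Rnase4. They are 9 of the 55487 genes in the count tables. They were selected by their function and on the difference between the sorted populations, Dnase1l3 above all, as already seen in these same libraries. Their differences between the populations are therefore given as a description, and no p or significance call is read for them.

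Macrophages were sorted from Lewis lung carcinoma, a mouse lung tumour line injected subcutaneously into C57BL/6 mice and left to grow for 15 to 17 days. The sort kept cells positive for CD11b and F4/80 and negative for Ly6C and Ly-6G, and parted them by surface MHC class II. Labels of MHC-II high and MHC-II low were each given to 3 libraries, called high-labelled and low-labelled libraries below, and within each label the replicates 1 to 3 are batches 1 to 3. All 6 come from tumour-bearing mice, and the labels give no genotype, sex or age of the mice and do not say whether the libraries of a label come from separate animals. The p-values given for other genes therefore rest on library-to-library spread that may be technical.

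Cells that die in a tumour release chromatin and RNA, and macrophages take up much of it. Secreted DNASE1L3 digests chromatin outside cells and in microparticles, and its loss in mice and people leads to antibodies against DNA. Lysosomal enzymes (DNASE2, PLD3, PLD4, RNASET2) break down what is engulfed and set how much reaches the endosomal Toll-like receptors, while TREX1 and SAMHD1 limit DNA and its building blocks in the cytosol.

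In each of the 6 libraries MHC class II transcripts contradicted the label. H2-Aa, a chain of the MHC class II molecule, averaged 5.52 ± 1.15 CPM (counts scaled to library size) in the high-labelled libraries and 1350 ± 172 CPM in the low-labelled libraries (SD, n = 3 each). Cd74, the invariant chain, averaged 30.6 ± 4.94 and 3049 ± 1318 CPM in high-labelled and low-labelled libraries. Each direction below is therefore that between libraries as labelled. Reads in genes numbered 15159356 to 25473051 in the high-labelled libraries and 10202879 to 21290781 in the low-labelled libraries. Low-labelled replicate 3 stood apart: 47.3% of its reads in genes fell on 1 copy of ribosomal RNA, against 3.85% to 13.5% in the other 5 libraries. Relative to the mean of all 6 libraries, its log2 CPM values also rose with the GC content of the gene. The slope was 0.82 per 10 percentage points, against −0.46 to 0.21 in the other 5. Of 10 macrophage markers all were tested, and edgeR's quasi-likelihood test (called at a Benjamini-Hochberg adjusted p under 0.05) called 0 of them, with 2 at an unadjusted p under 0.05 and 2 called by DESeq2. In both cases the 2 were Adgre1 and Lyz2. Both lay higher in all 3 high-labelled libraries, as did 10.5% of all tested genes. Adgre1 averaged 344 ± 25.8 and 184 ± 33.8 CPM in high-labelled and low-labelled libraries, and Lyz2 6456 ± 562 and 3384 ± 264 CPM. Of the 10 markers 3 had a log2 fold change above 0 and 7 below it. Their summed level was 9954 to 12146 CPM in the high-labelled libraries. In the low-labelled libraries it was 6634 to 12435 CPM, highest in replicate 3.

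Of the 9 genes, 8 had at least 1 read and 6 had enough reads to be tested among the 14140 genes of the fit. All 3 high-labelled libraries lay above all 3 low-labelled ones for 1 of the 6 and below them for 2. That was so for 10.5% and 9.48% of all tested genes. Since the genes were chosen on this contrast, nothing is read from these shares. The median log2 fold change of high-labelled over low-labelled was −0.61 over the 6 genes and −0.02 over all tested genes. Nothing is read from that difference either, for the same reason. In bulk libraries fewer cells of a type and less RNA per cell cannot be told apart.

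**Figure D1:**
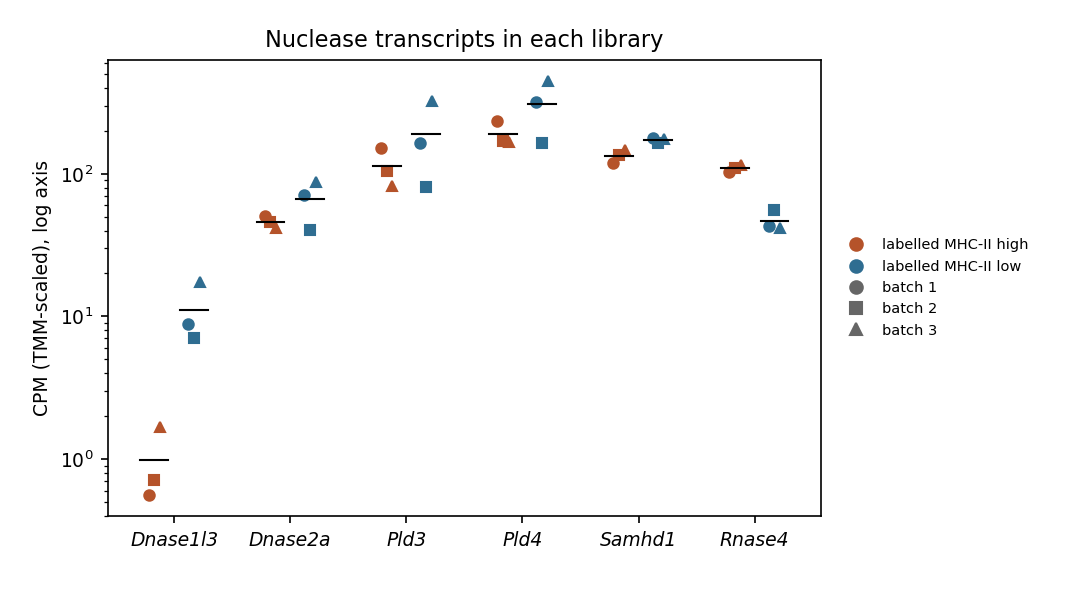
Level of the 6 tested nuclease genes in each library, in CPM on a log axis, with high-labelled libraries in orange on the left and low-labelled libraries in blue on the right; marker shapes are batches and black lines are means. Dnase1l3 and Samhd1 lie lower and Rnase4 higher in all 3 high-labelled libraries, while Dnase2a, Pld3 and Pld4 overlap between labels.

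Dnase1l3 showed the widest difference among the 6 tested genes. The gene lies on the minus strand at chr14:7964533-7994573 (GRCm38), with 9 exon blocks. It had 10, 16 and 47 reads in the high-labelled libraries, replicates 1 to 3, and 167, 172 and 98 reads in the low-labelled libraries. In CPM these were 0.557, 0.713 and 1.68 in the high-labelled libraries and 8.90, 7.03 and 17.5 in the low-labelled libraries. The lowest low-labelled library thus lay above the highest high-labelled library. The means were 0.983 ± 0.609 CPM in high-labelled and 11.1 ± 5.58 CPM in low-labelled libraries (SD, n = 3 each), 11.3-fold lower in the high-labelled libraries, with a log2 fold change of −3.42 (SE 0.52). Within batches 1, 2 and 3 the log2 ratio of high-labelled over low-labelled was −3.93, −3.26 and −3.37. Over the 17 alternative settings the log2 fold change ran between −4.08, without high-labelled replicate 3, and −2.97, without low-labelled replicate 3.

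The coding sequence of Dnase1l3 shares 60.7% of aligned bases with Dnase1, 60.2% with Dnase1l1 and 60.1% with Dnase1l2. The share with Dnase2a, an enzyme of another family, was also 60.1%, so these shares do not show kinship. No run of 50 bases was common to Dnase1l3 and the 3 relatives. The 60 bases in which Dnase1l3 and Dnase1 are most alike still hold 18 differences, which the capitals mark (GENCODE M21 transcripts, bases 424 to 483 and 412 to 471 of the coding sequences). They are shown because they bear on whether reads of the family could be counted for the wrong gene.
Dnase1l3: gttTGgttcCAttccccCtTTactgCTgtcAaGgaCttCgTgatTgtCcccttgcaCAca
Dnase1: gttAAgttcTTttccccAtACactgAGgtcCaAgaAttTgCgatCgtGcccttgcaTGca

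Dnase2a encodes the acid DNase of lysosomes that digests DNA of engulfed cells. It lies on the plus strand at chr8:84908560-84922915. It stood at 51.0, 46.1 and 41.5 CPM in the high-labelled libraries and 70.7, 40.6 and 87.4 CPM in the low-labelled libraries. The labels overlapped, since low-labelled replicate 2 had the lowest value of all. The log2 fold change was −0.52 (SE 0.28), −0.27 without low-labelled replicate 3 and −0.09 with each library's trend over GC content taken out. Without low-labelled replicate 2 it was −0.74. Of its exon bases, 30.0% overlap Mast1 on the opposite strand, and Mast1 had at most 6 reads in any library. Counting that ignored strand would give reads from shared bases to neither gene. How strand was treated is not known, so the low Mast1 count does not show that Dnase2a kept those reads.

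Pld3 and Pld4 encode lysosomal exonucleases that trim single-stranded DNA and RNA from the 5′ end. They lie at chr7:27532000-27553218 on the minus strand and chr12:112760655-112768990 on the plus strand. Pld3 stood at 151, 105 and 82.1 CPM in the high-labelled libraries and 166, 80.6 and 324 CPM in the low-labelled libraries. Pld4 stood at 235, 169 and 168 CPM in the high-labelled libraries and 317, 164 and 450 CPM in the low-labelled libraries. For both genes low-labelled replicate 2 was the lowest of the 6 libraries and low-labelled replicate 3 the highest. The log2 fold change of Pld3 was −0.75 (SE 0.46), but −0.13 without low-labelled replicate 3 and 0.06 without batch 3. That of Pld4 was −0.70 (SE 0.35), but −0.34 without low-labelled replicate 3 and −0.25 without batch 3. Exons of Pld3 and Pld4 are 58.5% and 55.4% GC, and with the GC trend taken out the log2 fold changes were −0.09 and −0.25. Without low-labelled replicate 2 they were −1.08 and −0.97.

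Samhd1 encodes a hydrolase of deoxynucleoside triphosphates, which keeps the pool for DNA synthesis low, and lies on the minus strand at chr2:157097533-157135265. It stood at 120, 136 and 146 CPM in the high-labelled libraries and 180, 165 and 174 CPM in the low-labelled libraries. All 3 high-labelled libraries lay below all 3 low-labelled ones, yet the gap was small. The means were 134 ± 13.2 CPM in high-labelled and 173 ± 7.44 CPM in low-labelled libraries, with a log2 fold change of −0.37 (SE 0.16). Scaling by total counts gave −0.083, where the median of all genes stood at 0.25, and thus −0.34 relative to that median.

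Trex1, the main DNA 3′ exonuclease of the cytosol, was listed at 0 reads in all 6 libraries. It lies on the minus strand at chr9:109057933-109059734. All 1147 of its exon bases also lie in exons of Atrip on the same strand, so reads from them cannot be given to 1 gene. A 0 here therefore sets no upper limit on Trex1. Atrip, which encodes a partner of the ATR checkpoint kinase, averaged 8.39 ± 1.19 and 9.30 ± 1.22 CPM in high-labelled and low-labelled libraries.

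Rnase4, a secreted RNase of the RNase A family, went the other way from Dnase1l3. It lies on the plus strand at chr14:51091077-51106151. It had 1858, 2462 and 3243 reads in the high-labelled libraries and 803, 1366 and 235 reads in the low-labelled libraries. In CPM these were 103, 110 and 116 in the high-labelled libraries and 42.8, 55.8 and 41.9 in the low-labelled libraries, with no overlap. The means were 110 ± 6.27 CPM in high-labelled and 46.9 ± 7.80 CPM in low-labelled libraries, 2.34-fold higher in the high-labelled libraries, with a log2 fold change of 1.22 (SE 0.18). Within batches 1, 2 and 3 the log2 ratio was 1.27, 0.97 and 1.46. With the batch as a replicate block the log2 fold change was 1.24 (SE 0.23), and it stayed between 1.04 and 1.47 in all 17 alternatives.

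Rnase4 shares its start and 13.4% of its exon bases with Ang, the gene of the RNase angiogenin, on the plus strand of chromosome 14. Ang averaged 5.69 ± 1.06 and 2.03 ± 0.886 CPM in high-labelled and low-labelled libraries, a log2 fold change of 1.40 (SE 0.35) with an edgeR adjusted p of 0.194. The 2 genes have the same entry of 300 bases in the RefSeq promoter table (GRCm38.p6, 250 bases before to 50 after the start, plus strand, chr14:51090827-51091126). Rnase4 has another entry, at chr14:51095750-51096049, which Ang lacks and which is not shown. The shared entry is shown because both genes lay higher in all 3 high-labelled libraries, and its part in that was not tested.
Rnase4 and Ang: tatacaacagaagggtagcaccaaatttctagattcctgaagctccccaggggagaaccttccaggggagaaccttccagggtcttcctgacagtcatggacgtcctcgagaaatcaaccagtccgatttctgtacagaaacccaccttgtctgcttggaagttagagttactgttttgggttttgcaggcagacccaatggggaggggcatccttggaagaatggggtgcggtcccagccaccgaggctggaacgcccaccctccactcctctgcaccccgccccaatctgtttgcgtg

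Of the 9 genes, 8 had an entry in the promoter table. Dnase1l3 had none, so its promoter was not searched. Searched on both strands, a PU.1 motif (GAGGAAGT) was in the window of Pld4, at bases 260 to 267, and in 1 window of Trex1. An interferon-stimulated element (GAAANNGAAA) was in that of Pld3, at bases 4 to 13. Of 32851 promoters 3.20% hold the first motif and 3.44% the second. CACGTG is the core of the site bound by lysosomal gene regulators of the TFEB family. It was in none of the windows searched for these 8 genes and in 7.15% of all promoters. A match is only a match of letters.

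Rnaset2a and Rnaset2b, the mouse copies of the lysosomal acid RNase, had few reads. They lie at chr17:8115445-8148097 on the minus strand and chr17:6970634-7011299 on the plus strand. Rnaset2a had 8, 2 and 5 reads in the high-labelled libraries and 6, 3 and 0 in the low-labelled libraries. Rnaset2b had 10, 11 and 9 reads in the high-labelled libraries and 7, 2 and 0 in the low-labelled libraries. Neither passed the filter on low counts, and no fold is given. The coding sequences of 780 bases are 100% identical, and 77.2% of the 50-base windows in Rnaset2a transcripts also occur in Rnaset2b. A read from such a window aligns to both places, so the counts do not give the level of either gene. The first 60 coding bases are shown with the start codon in capitals.
Rnaset2a: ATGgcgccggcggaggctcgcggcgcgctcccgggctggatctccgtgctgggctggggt
Rnaset2b: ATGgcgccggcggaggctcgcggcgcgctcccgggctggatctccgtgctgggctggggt

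**Figure D2:**
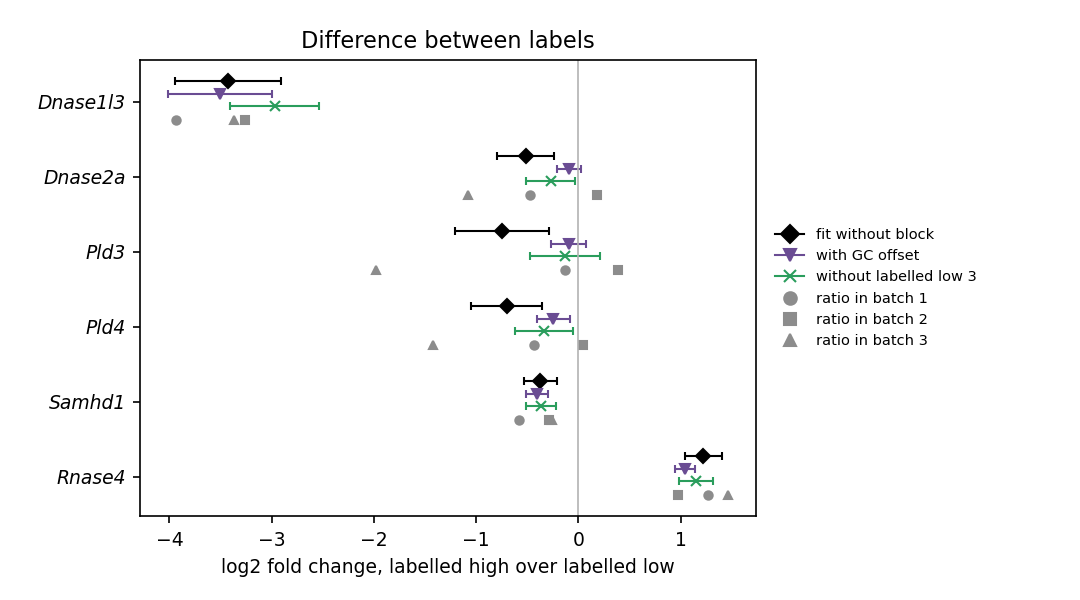
Log2 fold change of high-labelled over low-labelled libraries for the 6 tested nuclease genes, with bars of 1 standard error, in the fit without block, with the GC offset and without low-labelled replicate 3; grey markers are ratios within each batch. Dnase1l3 (−3.42) and Rnase4 (1.22) keep their side of 0 in all 3 batches, while Dnase2a, Pld3 and Pld4 lie above 0 in batch 2 and below it in batches 1 and 3.

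Per exon length and over all 6 libraries, Pld4 had the highest level, at 72.4 ± 33.0 RPKM (CPM per kilobase of exon). Pld3 followed at 51.8 ± 31.3, Rnase4 at 47.8 ± 21.4, Samhd1 at 16.8 ± 2.57, Dnase2a at 10.4 ± 3.49 and Dnase1l3 at 1.18 ± 1.28 RPKM (SD, n = 6). These means pool both labels, and the order of the first 3 turned between them. Rnase4 had 63.2, 67.0 and 70.8 RPKM in the high-labelled libraries and 26.1, 34.1 and 25.6 RPKM in the low-labelled libraries. Pld3 had 51.7, 36.05 and 28.1 RPKM in the high-labelled libraries and 56.7, 27.6 and 111 RPKM in the low-labelled libraries. Rnase4 thus lay above Pld3 in all 3 high-labelled libraries and in low-labelled replicate 2, and below it in low-labelled replicates 1 and 3. It also lay above Pld4 (48.9 and 48.5 RPKM) in high-labelled replicates 2 and 3. Without low-labelled replicate 1 or 3 Rnase4 came before Pld3 in the order. Pld4 over Pld3, Rnase4 over Samhd1, Samhd1 over Dnase2a and Dnase2a over Dnase1l3 held in 6 of 6 libraries each. A two-sided exact sign-flip permutation test of neighbours gave its smallest possible p, 0.03125, for these 4 pairs, or 0.0547 adjusted over 7 pairs. The pairs were ordered on the same 6 libraries, so nothing is read from these p-values.

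The pattern of Dnase1l3 over the 6 libraries was most like that of 5 genes, chosen by the Pearson correlation of log2 CPM among genes at 5 CPM or more. Spint1, a membrane inhibitor of serine proteases, had r = 0.996 and averaged 8.68 ± 2.49 and 55.9 ± 22.8 CPM in high-labelled and low-labelled libraries. Itgax, which encodes the integrin CD11c, had r = 0.994 and averaged 61.3 ± 23.4 CPM in high-labelled and 304 ± 73.5 CPM in low-labelled libraries. H2-DMb2, a chain of the peptide loader of MHC class II, had r = 0.993 and averaged 1.44 ± 0.467 CPM in high-labelled and 11.7 ± 3.66 CPM in low-labelled libraries. Dnajc30 (r = 0.994) and the inhibitory receptor gene Cd300a (r = 0.993) made up the 5. Dnajc30 averaged 9.37 ± 0.523 and 12.1 ± 0.931 CPM in high-labelled and low-labelled libraries, and Cd300a 39.1 ± 2.82 and 63.1 ± 7.70 CPM. Their log2 fold changes were only −0.37 and −0.69, so a high r did not mean a wide difference. Among the nuclease genes r with Dnase1l3 was 0.953 for Samhd1, 0.628 for Dnase2a, 0.626 for Pld4, 0.483 for Pld3 and −0.94 for Rnase4. The points share their libraries and labels, so these values describe the pattern only.

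**Figure D3:**
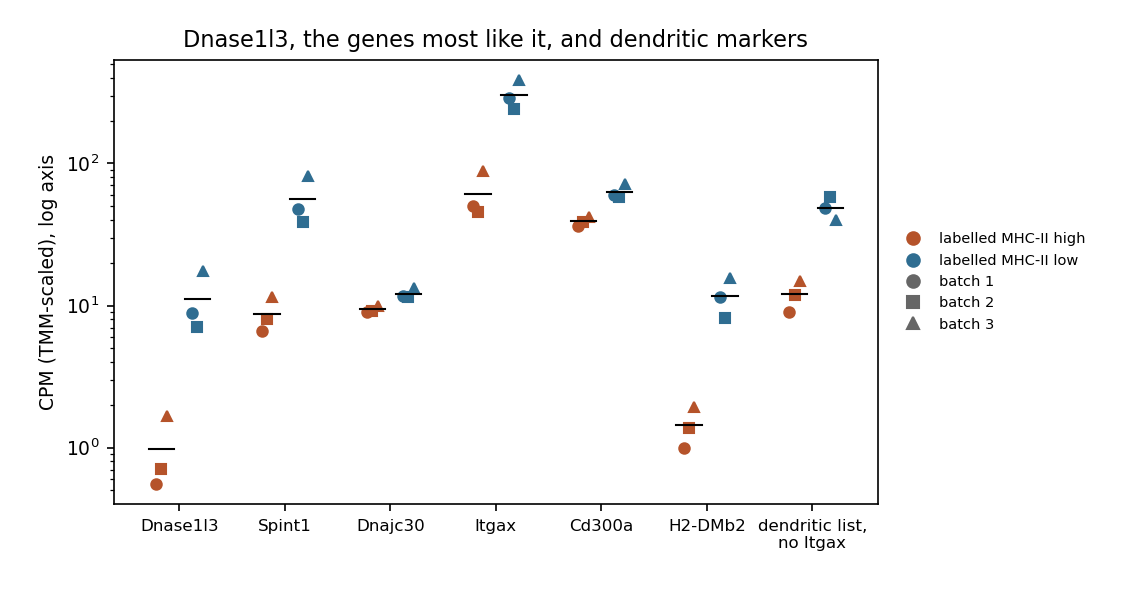
Level of Dnase1l3, of the 5 genes most like it and of the summed dendritic cell markers without Itgax, in CPM on a log axis, with high-labelled libraries in orange on the left and low-labelled libraries in blue on the right; marker shapes are batches and black lines are means. Every one of the 7 values is lower in all 3 high-labelled libraries than in the low-labelled ones.

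Markers of dendritic cells, which are known to express Dnase1l3, moved with it. Of 11 listed markers 9 were tested, and for all 9 every high-labelled library lay below every low-labelled one, as for 9.48% of all tested genes. EdgeR called 4 lower (Flt3, Itgax, Ccr7 and Ccl22), as it did 0.354% of all tested genes, and the median log2 fold change was −2.65. The list was chosen with earlier results of these data known. Flt3, Ccr7, Cd209a and Batf3 had at most 6 reads in any high-labelled library. They passed the filter on low counts only through the low-labelled libraries, which favoured this direction. Nothing is therefore read from these shares and calls. The summed level of the 11 markers was 57.0 to 103 CPM in the high-labelled libraries and 299 to 425 CPM in the low-labelled libraries, and none of the 11 was at 0 in all libraries. Without Itgax, which macrophages also express, the sums were 9.07 to 15.0 CPM in high-labelled and 40.2 to 57.8 CPM in low-labelled libraries. Cd24a gave the largest part of these sums, averaging 9.31 ± 2.51 CPM in high-labelled and 18.9 ± 4.30 CPM in low-labelled libraries. Ccl22 averaged 0.586 ± 0.0894 CPM in high-labelled and 12.3 ± 1.52 CPM in low-labelled libraries. B cell markers summed to 2.23 to 2.90 CPM in high-labelled and 6.54 to 13.03 CPM in low-labelled libraries. T and NK cell markers summed to 0.612 to 1.29 CPM in high-labelled and 2.32 to 2.66 CPM in low-labelled libraries. Plasmacytoid dendritic cell markers summed to 124 to 141 CPM in high-labelled and 92.97 to 115 CPM in low-labelled libraries. Nearly all of this sum was Tcf4, which averaged 134 ± 9.10 CPM in high-labelled and 105 ± 11.7 CPM in low-labelled libraries. Siglech had 2 reads over the high-labelled and 0 over the low-labelled libraries. Neutrophil markers summed to 4.51 to 8.80 CPM in high-labelled and 1.39 to 4.82 CPM in low-labelled libraries. Eosinophil, basophil and mast cell markers summed to 2.39 to 3.43 CPM in high-labelled and 0.892 to 3.48 CPM in low-labelled libraries. Fibroblast markers summed to 407, 404 and 71.8 CPM in high-labelled replicates 1 to 3 and to 507, 596 and 126 CPM in low-labelled replicates 1 to 3. The sum was thus lower in the high-labelled library of each batch, and lowest in batch 3 for both labels. Endothelial markers summed to 16.3 to 20.3 CPM in high-labelled and 12.9 to 20.9 CPM in low-labelled libraries. Epithelial markers, of which edgeR called Cdh1 lower, summed to 14.8 to 21.7 CPM in high-labelled and 41.0 to 42.6 CPM in low-labelled libraries. Of these cell types edgeR called 0 other markers, with 2 of B cells, 1 of neutrophils, 1 of fibroblasts and 2 of endothelium at an unadjusted p under 0.05, and DESeq2 called 1, of B cells. At 0 in all libraries were Klk1, Cd3d, Cd3e, Cd8a, Ly6g, Epx and Mcpt8. The part of such cells in the difference of Dnase1l3 was not tested.

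Around these enzymes, 6 lists of 92 genes covered other nucleases, the sensors of nucleic acids and the supply of deoxynucleotides. Of 77 tested, edgeR called 0 higher and 1 lower in the high-labelled libraries, against 0.0919% and 0.354% of all tested genes, and 5 on the higher and 11 on the lower side had an unadjusted p under 0.05. DESeq2 called 2 higher and 4 lower, and limma-voom 0 and 1. The libraries did not overlap for 8 of the 77 on the higher and 9 on the lower side, near the 10.5% and 9.48% of all tested genes. The median log2 fold change was −0.05, against −0.02 over all tested genes.

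**Figure D4:**
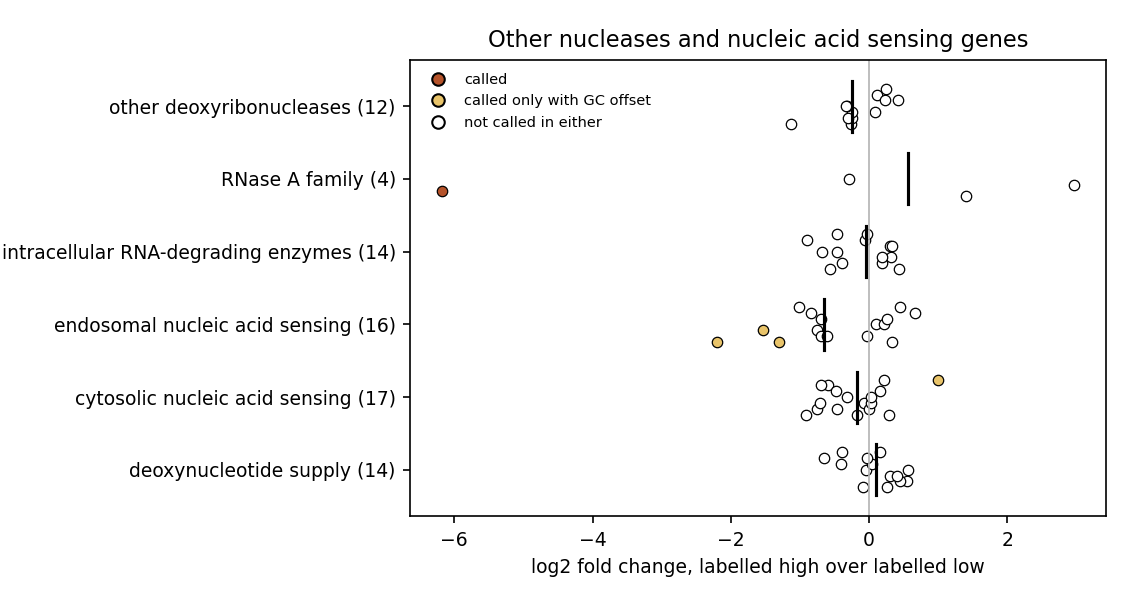
Log2 fold change of high-labelled over low-labelled libraries for the tested genes of 6 lists, with the number tested in brackets; each point is a gene, colours mark genes called in the fit or only with the GC offset, and black lines are medians. Endosomal sensing has a median of −0.65 and the RNase A family, with 4 genes, one of 0.56, and Ear2 at −6.18 is the called gene. Both medians are from all 6 libraries without the GC offset.

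Among RNases of the RNase A family 4 of 15 were tested and 9 had no read in any library. Ear2, an eosinophil-associated RNase, fell in the high-labelled libraries: it had 1, 0 and 5 reads there and 207, 137 and 16 reads in the low-labelled libraries. The log2 fold change was −6.18 (SE 0.79, edgeR adjusted p = 0.0224). The call was lost without high-labelled replicate 1, 2 or 3 or low-labelled replicate 1, and close paralogs can share its reads. Ear2 passed the filter on low counts only through the low-labelled libraries, which favoured this direction. Rnase6 had a log2 fold change of −0.29 (adjusted p = 0.707). Among 12 tested deoxyribonucleases edgeR and DESeq2 called 0 and 0 had an unadjusted p under 0.05. Dnase1l1, a membrane-anchored relative of Dnase1l3, averaged 73.2 ± 2.76 and 54.7 ± 13.4 CPM in high-labelled and low-labelled libraries (log2 fold change 0.42, adjusted p = 0.444, and 0.26 without low-labelled replicate 3), while Dnase1 and Dnase2b had no reads. Endog, a mitochondrial nuclease, and Fen1, a flap endonuclease of replication, had −1.12 (adjusted p = 0.4998) and −0.34 (adjusted p = 0.501). Without low-labelled replicate 3 these were −0.25 and −0.17, and with the GC trend taken out −0.53 and −0.051.

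Of 16 genes of endosomal sensing, edgeR called 0, with 7 at an unadjusted p under 0.05 and 3 called by DESeq2. The log2 fold change was below 0 for 10 and above 0 for 6. Most of the 10 moved toward 0 without low-labelled replicate 3 and with the GC trend taken out. Slc29a3, a lysosomal nucleoside transporter, averaged 49.2 ± 2.20 and 143 ± 53.3 CPM in high-labelled and low-labelled libraries, with a log2 fold change of −1.54 (SE 0.28, edgeR adjusted p = 0.0791). With the GC trend taken out it was −1.46 (adjusted p = 0.0125). Tlr9, the receptor for DNA with unmethylated CpG, averaged 10.4 ± 1.66 CPM in high-labelled and 48.3 ± 36.2 CPM in low-labelled libraries, with −2.21 (SE 0.52, adjusted p = 0.161). With the GC trend taken out this was −1.59 (adjusted p = 0.0306), and without low-labelled replicate 3 it was −1.46 (adjusted p = 0.166). Slc15a3, a lysosomal peptide transporter, averaged 92.0 ± 12.3 CPM in high-labelled and 228 ± 120 CPM in low-labelled libraries, with −1.31 (adjusted p = 0.226). With the GC trend taken out this shrank to −0.70 (adjusted p = 0.0317), and without low-labelled replicate 3 to −0.83 (adjusted p = 0.260). Each of the 3 lay lower in all 3 high-labelled libraries, and of the 16 genes 5 did so. Tlr7 was the 1 gene of the 16 that lay higher in all 3 high-labelled libraries. Its log2 fold change was 0.67 (SE 0.26, edgeR adjusted p = 0.387). With the GC trend taken out this was 0.37, and without low-labelled replicate 3 it was 0.45.

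Of 17 genes of cytosolic sensing, edgeR called 0, with 4 at an unadjusted p under 0.05 and 1 called by DESeq2. Enpp1, which degrades the cyclic dinucleotide that activates STING, averaged 15.1 ± 2.22 and 7.58 ± 0.274 CPM in high-labelled and low-labelled libraries, with a log2 fold change of 1.00 (SE 0.21, adjusted p = 0.132). With the GC trend taken out it was 0.81 (adjusted p = 0.0482). Tmem173, which encodes STING, averaged 21.5 ± 0.637 CPM in high-labelled and 40.4 ± 11.96 CPM in low-labelled libraries, with −0.91 (adjusted p = 0.231, and −0.80 with 0.0667 with the GC trend taken out). Mavs, the adaptor of the RNA sensors, had −0.69 (adjusted p = 0.382, and −0.37 with 0.159 with the GC trend taken out). Of 14 intracellular RNA-degrading enzymes and 14 genes of deoxynucleotide supply edgeR and DESeq2 called 0, with 1 in each list at an unadjusted p under 0.05. Adar, Skiv2l and Zc3h12a had log2 fold changes of −0.57, −0.68 and −0.90, and Rrm2b, Dck and Nt5c 0.56, 0.55 and −0.65, with adjusted p between 0.408 and 0.456. Without low-labelled replicate 3 the first 3 were −0.34, −0.24 and −0.30, and the other 3 were 0.42, 0.38 and −0.44. With the GC trend taken out they were −0.29, −0.12 and −0.29, and 0.25, 0.27 and −0.13.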

How the data were processed

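The authors deposited 1 table of raw gene counts for each of the 6 libraries. FastQC, Trimmomatic, STAR, HTSeq, DESeq2 and the build GRCm38 come from the submitters' processing notes. Libraries were rRNA-depleted and stranded, per the labels' protocols; how the counting treated strand and which annotation it used is not given in the sources here. The 5 summary lines stayed out of library sizes: of a library's reads 35.2% to 49.4% had no feature, 0.324% to 0.864% were ambiguous and 7.60% to 17.4% were not uniquely aligned. GENCODE M21 matched 55227 of 55487 genes.

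Counts were fitted in R 4.3.3 with edgeR 4.0.16 (TMM, default filter, quasi-likelihood test, no further term), and genes past an adjusted p of 0.05 were called. CPM used library sizes after TMM scaling. Batch ratios and the order of levels had 0.5 reads added, and that order covers 7 pairs of the 8 genes with a read. The GC alternative takes out each library's trend by a local regression (span 0.4). DESeq2 1.42.0, limma 3.58.1 (voom), other scalings and filters, removal of ribosomal and mitochondrial genes, the batch as a block, and leaving out batch 3 or each library in turn were the other alternatives. The fit was tested on simulated data. No 2 tables were identical. The labels give the batches; deviations of same-numbered libraries correlated at 0.16, 0.33 and −0.12 over 14140 genes in batches 1, 2 and 3.

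The 9 genes, the 6 pathway lists and the 10 marker lists were chosen with earlier results of these data known. Named were the 9 genes, from each pathway list any called gene and up to 3 of lowest p (mean of 1 CPM or more where higher), the 5 genes most like Dnase1l3, and MHC class II genes as the check of the labels. Other genes named were chosen after their values were seen. Intervals are not given for counts; reads carry no molecular identifiers.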

Additional observations from a re-analysis of the deposited data

How the results depend on the processing

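Over the 17 alternatives the fold changes of the nuclease genes kept their sign, except that of Pld3, which was 0.06 without batch 3. Over all genes, 13 were called higher and 50 lower in high-labelled libraries; total counts gave 8 higher, and a log2 fold change of −3.01 for Dnase1l3 against −3.42. DESeq2 gave 121 and 277 (pathway genes 2 and 4, against 0 and 1), no filter on low counts 113 and 436 (pathway 3 and 5), and the GC offset 124 and 240 (pathway 1 and 4). The replicate block gave 1 higher and 40 lower, and −3.52 for Dnase1l3; with the GC offset it gave 169 and 376 (pathway 2 and 5). Without batch 3 the counts were 0 and 28. Leaving out each library in turn gave 0 to 246 higher and 8 to 784 lower, 0 to 3 and 0 to 14 for the pathway genes, and −4.08 to −2.97 for Dnase1l3; the highest counts came without low-labelled replicate 2 and 0 higher without high-labelled replicate 1, 2 or 3 or low-labelled replicate 1. The causes were not tested. Depth limits Dnase1l3, with 73 reads over the 3 high-labelled libraries. Rnaset2a and Rnaset2b stayed untested at low counts, and with identical coding sequences their counts do not give the level of either gene.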
